A study of Mus musculus with 2 samples.

Results

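The interleukin-1 family genes examined here were 10 genes chosen by name: the cytokines Il1a, Il18 and Il33, the receptor antagonist Il1rn, the binding protein Il18bp, the receptor genes Il1r1, Il1rap, Il1r2 and Il1rl1, and the inflammasome sensor Nlrp3. They were taken as every probe whose RefSeq transcript identifier belongs to one of these genes, which gave 14 probes for all 10 genes among the 20652 genes with a named probe on the array. Other genes of the family outside these 10 and the lists below were not analysed here. Liver RNA came from male mice aged 8 weeks when adenovirus (1e9 plaque forming units) was injected into the tail vein. One group (Ad-Ctrl) had a control virus and the other (Ad-378) a virus labelled as overexpressing the microRNA miR-378, and no other allele or agent is named for either. For each virus the livers of 5 mice were pooled and measured on 1 array. The labels' protocols put collection 2 weeks after injection for both, while the description of the Ad-378 sample says 3 weeks, so time and virus cannot be told apart should the second be right.

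Interleukin-1 family cytokines are alarm signals. IL-1 alpha and IL-33 act when released from damaged or activated cells, whereas IL-18 is made as a precursor that caspase-1 cuts once a sensor such as NLRP3 has assembled an inflammasome. Each cytokine binds a receptor that pairs with an accessory chain and signals through MyD88 and the IRAK kinases to NF-kB, and each has a brake: an antagonist, a decoy receptor or a soluble binding protein. In the liver the Kupffer cells, which are the resident macrophages, are a known source of IL-18 and IL-1, and hepatocytes answer IL-1 with acute phase proteins.

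Both arrays gave 43020 gene spots. The share well above background was 63.1% for Ad-Ctrl and 65.7% for Ad-378, and no spot was saturated. All 8 hepatocyte markers, among them the serum protein genes Alb and Ttr, were well above background in both pools, with differences between -0.16 and 0.23. Levels are log2 of the scanner's processed signal minus the array's 75th percentile, and a difference is Ad-378 minus Ad-Ctrl on that log2 scale. With 1 array per group there is no spread between replicates, no p-value is given, and no difference below has a replicate check. The error given with a difference is the scanner's own error of the spots, which leaves out all variation between mice. It was near 0.20 for bright probes, with a median of 0.20 over all genes. Repeated spots of the 320 probes with at least 10 spots varied less, with median log2 standard deviations of 0.07 (Ad-Ctrl) and 0.08 (Ad-378). The number of arrays limits the precision.

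The clearest difference in the family was Il18bp, the secreted protein that binds and neutralises IL-18, which was 2.26-fold lower in the Ad-378 pool. Il1a and Nlrp3 lay on the other side, 1.59-fold and 1.67-fold higher in the Ad-378 pool. Il18 and Il1r1 were lower by less than 1.5-fold, and the dim Il1r2 had a difference whose sign depended on the treatment of background. Il1rap and Il1rn were higher by less than 1.5-fold, and Il33 was near equal. Of the 10 genes, 9 were well above background on both arrays and the tenth, Il1rl1, in the Ad-378 pool only. Of those 9, 0 were at least 2-fold higher, against 2.83% of the 14288 genes measured in both pools, and 1 was at least 2-fold lower, against 4.51%. A count of 1 in 9 is not read here as a result about the family. Differences were above 0 for 5 of the 9 (53.9% of all genes) and below 0 for 4 (46.1% of all genes). At 1.5-fold, 2 of the 9 were higher (8.79% of all genes) and 1 lower (12% of all genes). The median of the 9 differences was 0.04, as was the median of all genes.

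**Figure D1:**
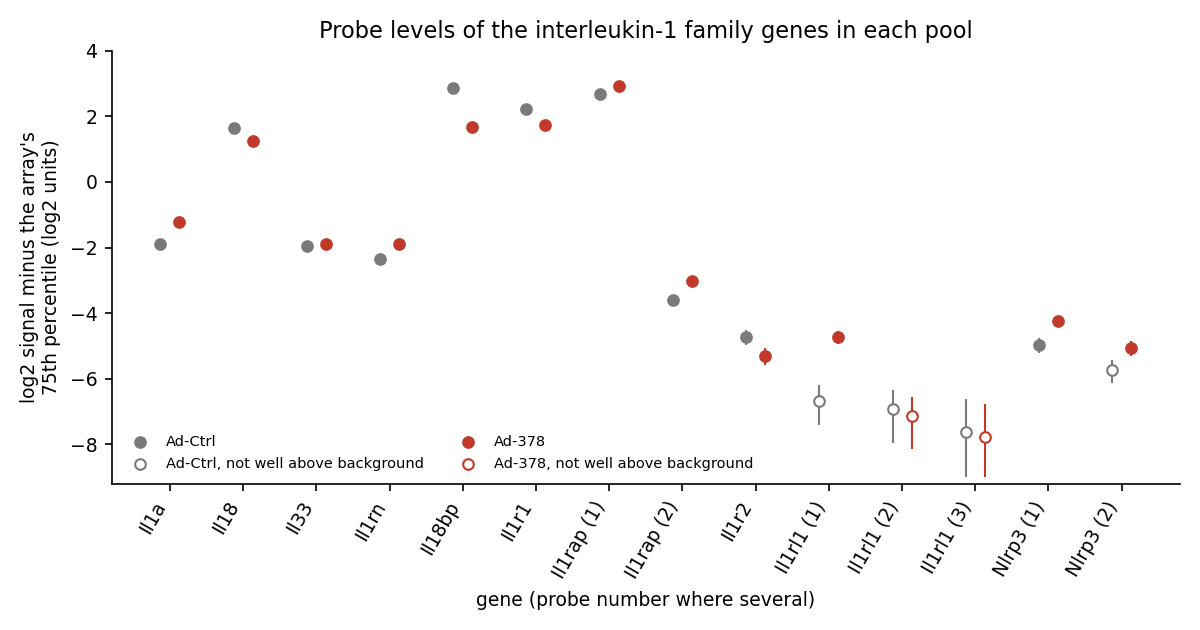
Level of each probe of the 10 genes (log2 signal minus the array's 75th percentile) in Ad-Ctrl (grey) and Ad-378 (red), with the scanner's error as bars and open circles for probes not well above background. The Il18bp points stand furthest apart among probes detected in both pools, at 2.86 and 1.69, and both Il1rl1 probes not well above background in either pool lie at the foot of the scale. Heights of different probes are not comparable.

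Among the 9 genes detected in both pools, the start regions of the lowest (Il18bp) and of both with the highest differences (Nlrp3 and Il1a) are shown here, because they differed in opposite directions. The 250 bases before a start site were taken from RefSeq (GRCm38.p6), in which all 10 genes have at least 1 start and together 16. They were searched on both strands for NF-kB (by name), the interferon-gamma element GAS (TTCNNNGAA), the interferon element ISRE (a pattern of 10 letters), AP-1 (TGANTCA) and C/EBP (TTNNGNAAT). Capitals mark a match.
Il18bp, chr7:102018233-102018482, minus strand: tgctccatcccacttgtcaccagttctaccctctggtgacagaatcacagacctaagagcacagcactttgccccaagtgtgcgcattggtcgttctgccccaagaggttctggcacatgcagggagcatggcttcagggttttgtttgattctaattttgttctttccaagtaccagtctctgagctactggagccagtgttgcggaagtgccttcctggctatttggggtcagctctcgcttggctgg
Il1a, chr2:129309973-129310222, minus strand: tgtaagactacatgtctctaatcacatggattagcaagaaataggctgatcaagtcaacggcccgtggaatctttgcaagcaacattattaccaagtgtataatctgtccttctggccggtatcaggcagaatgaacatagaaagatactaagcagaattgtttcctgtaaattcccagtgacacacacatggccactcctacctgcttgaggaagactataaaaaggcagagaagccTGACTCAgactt
Nlrp3, chr11:59541319-59541568, plus strand: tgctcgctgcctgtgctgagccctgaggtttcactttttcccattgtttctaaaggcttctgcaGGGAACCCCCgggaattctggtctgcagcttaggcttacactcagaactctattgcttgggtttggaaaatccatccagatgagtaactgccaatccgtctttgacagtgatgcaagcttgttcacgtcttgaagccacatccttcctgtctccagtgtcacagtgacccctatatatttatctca
The Il1a window held 1 AP-1 match, 12 bases before the start, and the Nlrp3 window at this start held 1 NF-kB match, beginning 186 bases before it. The second Nlrp3 start and the Il18bp window held none of the 5, which says only that these letters are not in those windows. Over the 16 windows, NF-kB letters stood in 2, AP-1 in 2, GAS in 1, ISRE in 0 and C/EBP in 4. Of 32817 RefSeq windows of the same length, 7.25% held NF-kB, 6.75% AP-1, 7.01% GAS, 2.97% ISRE and 10.2% C/EBP. Some of these motifs overlap, as in 1 Il1r1 window where the NF-kB and C/EBP letters share bases. A match is a description of letters and not a site of binding.

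Among the cytokines, Il1a had processed signals of 215 (Ad-Ctrl) and 297 (Ad-378). The Ad-378 pool was the higher, by 0.67 with a scanner error of 0.21, and 6.63% of all genes had a difference as high or higher. Il18, the substrate of caspase-1, had signals of 2498 (Ad-Ctrl) and 1655 (Ad-378). It was lower in the Ad-378 pool by a difference of -0.39 with an error of 0.20, so the gap was under 2 times the error of the spots. Il33, a nuclear alarmin and the ligand of the ST2 receptor, had signals of 208 and 185. After scaling these were level, at a difference of 0.04 with an error of 0.21. Of the 3 cytokine genes, Il1a alone lay more than 2 scanner errors from 0. Stellate cells and endothelium are known sources of IL-33. Of stellate cell markers, 11 of 11 measured in both pools were lower in Ad-378 (46.1% of all genes), with a median of -0.65. Their summed unscaled signals were 61671 and 28850. The collagen genes Col3a1 (signals of 16131 and 2146) and Col1a1 (11406 and 2122) had the largest differences, at -2.71 and -2.22. Lrat (-0.01) and Hand2 (-0.05) were near equal. Sinusoidal endothelial markers had a median of -0.18, inside the quartiles of all genes (-0.28 and 0.30). Of these, 8 of 10 were lower (46.1% of all genes), with unscaled sums of 48551 and 35404. The part of either in the Il33 value was not tested.

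The genes of the brakes on these cytokines lay on both sides of 0. Il1rn, which encodes the antagonist that occupies the IL-1 receptor without signalling, had signals of 156 (Ad-Ctrl) and 187 (Ad-378). It was higher in the Ad-378 pool by 0.47 with an error of 0.21. Its difference and that of Il1a were only 0.20 apart, with an error of 0.29, so the gap between agonist and antagonist genes was within the scanner's error. Il18bp had signals of 5831 (Ad-Ctrl) and 2242 (Ad-378). Its difference was -1.18 with an error of 0.20, and 3.16% of all genes had one as low or lower. The difference of Il18 lay 0.79 above that of Il18bp, with an error of 0.29. Il18bp was at least 2-fold lower under each of the 7 other scalings, background corrections and probe rules that were run, between -1.27 and -1.18. With 1 probe, detected in both pools, its value could not change without the background filter or under the mean over probes. Kupffer cell and macrophage markers were lower in the Ad-378 pool as well. Of 16 listed, 14 were measured in both pools, 13 of them lower (46.1% of all genes), with a median of -0.84. The other, Itgam, had 0.89 at its brightest probe and 0.21 and -0.25 at the others. The summed unscaled signal of the probes of all listed markers was 107484 in Ad-Ctrl and 49980 in Ad-378. Cd163 was not well above background in either pool, and no probe was matched to Cd68. Il18bp, Il18 and Il1r1 were also lower in the Ad-378 pool, whereas Il1a, Il1rn, Il1rap and Nlrp3 were higher. The differences of Il18 and of the brighter Il1rap probe were under 2 scanner errors. The part of the markers in any of these values was not tested. In RNA of a whole tissue, fewer cells of a type and less RNA per cell cannot be told apart.

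**Figure D2:**
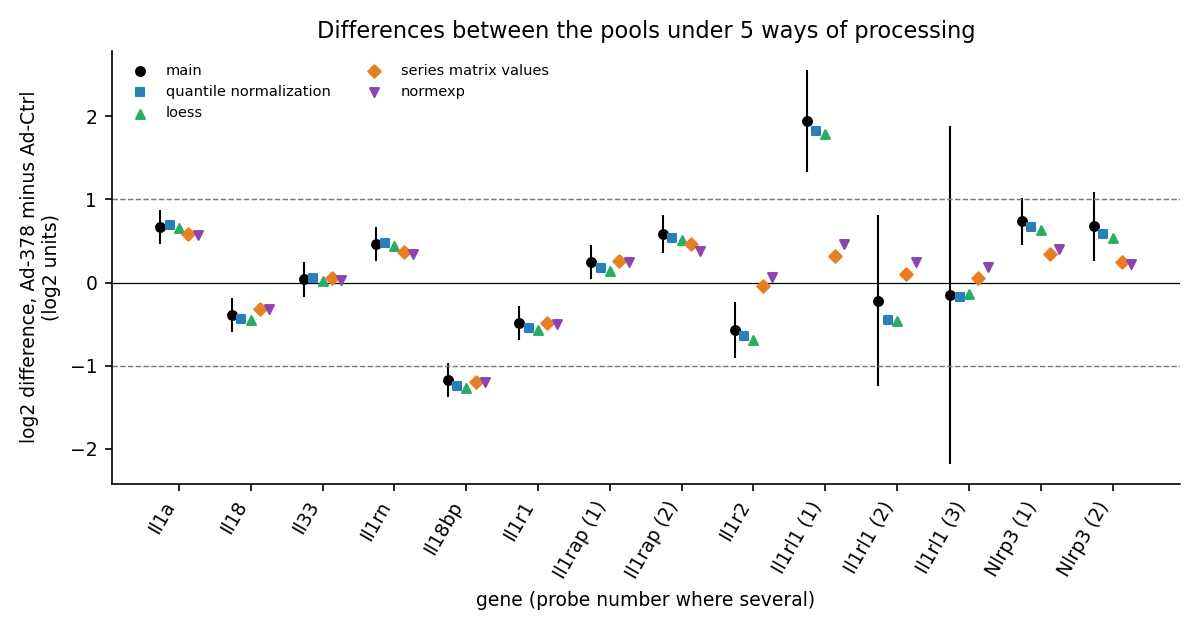
Log2 difference (Ad-378 minus Ad-Ctrl) of each of the 14 probes under 5 ways of processing, with the scanner's error as a bar on the processed-signal value (black, labelled main) and dashed lines at 2-fold. Il18bp lies below the lower line in all 5, whereas the brightest Il1rl1 probe falls from 1.94 on the processed signal to 0.32 on the series matrix values and 0.47 with normexp.

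The receptor genes of this family that lie on chromosome 1 are 6 neighbours in the order Il1r2, Il1r1, Il1rl2, Il1rl1, Il18r1 and Il18rap, with no other protein-coding gene between them in RefSeq. Il1r1, the signalling receptor of IL-1, had signals of 3770 (Ad-Ctrl) and 2330 (Ad-378). It was lower in the Ad-378 pool, at -0.49 with an error of 0.20. Il1r2, a decoy that binds IL-1 and lacks the signalling domain, was dim, with signals of 30.2 and 17.7. Its difference of -0.57 had an error of 0.34 and became -0.04 on the series matrix values and 0.07 by normexp, so no direction can be given for it. Neutrophils are known to carry this decoy, and their 12 markers had a median of -0.30 over the 8 measured in both pools. Of these 8, 5 were lower (46.1% of all genes) and 3 higher. Their summed unscaled signals were 10314 and 10159, most of it from the Csf3r probe (6668 and 6850). Il18r1, the IL-18 receptor chain, was also dim, with a difference of -0.69 and an error of 0.32 at 1 probe, which was -0.22 on the series matrix values. A second probe of Il18r1 was below background in both pools, as were Il1rl2 and Il18rap. Lymphocytes are known to carry the IL-18 receptor. The 10 genes of T and NK cells measured in both pools had a median of -0.46. Of these, 6 were lower (46.1% of all genes) and 4 higher.

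Il1rl1 encodes ST2, the receptor of IL-33, in a membrane form and a soluble form that acts as a decoy. Its probe for NM_010743, the transcript known for the soluble form, had a signal of 7.84 in Ad-Ctrl, not well above background, and 26.2 in Ad-378, which was. The gene was higher in the Ad-378 pool by at least 1.98-fold, a bound set against the dimmest signal detected on the Ad-Ctrl array (15.2). Of the 725 genes detected in the Ad-378 pool only, 108 (14.9%) had a bound of at least 2-fold, and Il1rl1 was just under it. Both probes for NM_001025602, the membrane form, were below background in both pools, with signals between 3.19 and 6.59. Before background subtraction the raw signals of the detected probe were near each other, at 72 and 78, and their local backgrounds were 48 and 40. Without subtraction the difference was 0.32. The size of the gap therefore depends on how those backgrounds are subtracted. Of 9 markers of mast cells and group 2 lymphoid cells, which carry ST2, 6 were below background in both pools, including Cpa3, Mcpt4, Cma1, Il5 and Il13, and Areg was detected in the Ad-Ctrl pool only. The other two were measured in both pools, Kit with signals of 569 and 262 and a difference of -0.91, and Gata3 with a difference of -0.24, a median of -0.58.

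Il1rap encodes the accessory chain shared by the receptors of IL-1 and IL-33. Its brighter probe had signals of 5126 (Ad-Ctrl) and 5296 (Ad-378), a difference of 0.25 with an error of 0.20. A second probe, named for another transcript, was dimmer, with signals of 65.7 and 85.5 and a difference of 0.58 with an error of 0.23. Both probes had the higher level in the Ad-378 pool. The gene makes a membrane and a soluble form, and which form each probe reads is not settled by the files used here. The difference of Il1rap lay 0.74 above that of Il1r1, with an error of 0.29. Sigirr, listed beside these genes, is a brake on IL-1 and Toll-like receptor signalling, and had a difference of 0.48 with an error of 0.20.

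**Figure D3:**
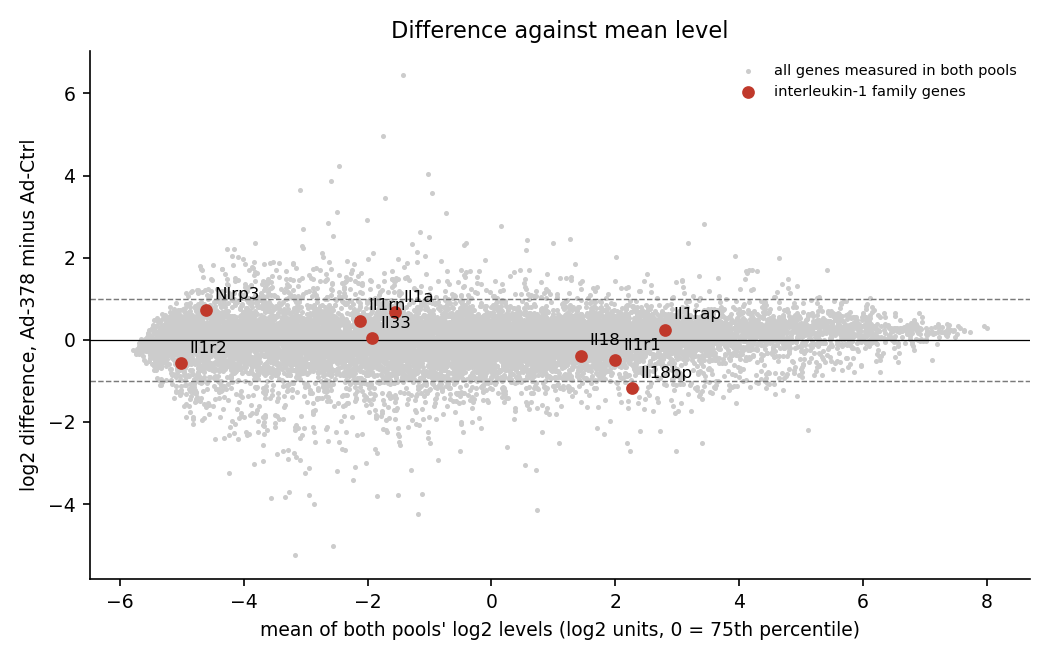
Log2 difference (Ad-378 minus Ad-Ctrl) against the mean level of both pools for the 14288 genes measured in both (grey) and the 9 interleukin-1 family genes among them (red), with dashed lines at 2-fold. Il18bp is a bright gene below the lower line, while Nlrp3 and Il1r2 sit at the dim end of the scale.

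Nlrp3, the sensor that assembles an inflammasome with the adaptor ASC and caspase-1, was measured by 2 probes of 1 transcript. The brighter had signals of 25.4 (Ad-Ctrl) and 36.8 (Ad-378), a difference of 0.74 with an error of 0.29. The dimmer had 15.0 in Ad-Ctrl, not well above background, and 20.8 in Ad-378, with a bound of at least 1.58-fold. Both probes had the same direction. The brighter one gave 0.34 on the series matrix values and 0.40 with normexp, so the direction was the same and the size smaller. The difference of Nlrp3 lay 0.78 above that of Casp1, with an error of 0.35.

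The other inflammasome genes lay on both sides of 0. Of 19 listed genes, 17 were measured in both pools, with 7 differences above 0 (53.9% of all genes) and 10 below 0 (46.1%), and a median of -0.04. By 2-fold or more, 0 were higher (2.83% of all genes) and 1 lower (4.51%), near those shares. Casp1, the protease that cuts the IL-18 precursor, had signals of 1576 and 1332 and a difference of -0.04. Pycard, which encodes ASC, had 0.19 and the pore-forming substrate Gsdmd 0.37, each with an error of 0.20. Panx1, a membrane channel that releases ATP, was the gene at least 2-fold lower, with signals of 172 and 66.8 and a difference of -1.16. It was -0.78 on the series matrix values and -0.73 with normexp, inside 2-fold. The ATP-gated channel gene P2rx7 was lower at all 3 of its probes, between -0.69 and -0.54. Naip1 had -0.61 at its brighter probe and -1.53 at the other, both dim. These became -0.23 and -0.51 on the series matrix values and -0.13 and -0.29 with normexp. Naip2 (-0.83) and Naip6 (-0.77) were lower too, while Naip5, the brightest of the Naip genes, was higher at 0.38. The Naip genes are near-identical copies whose probes may not tell them apart. Nlrc4, the partner of the NAIP sensors, was detected in the Ad-Ctrl pool only, where it was at least 1.61-fold higher. Of the 344 genes detected there only, 128 (37.2%) had a bound of at least 2-fold. On the series matrix values Nlrc4 differed by -0.01.

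Genes that carry the signal inside the cell differed little in the middle of their list, with quartiles of -0.10 and 0.23. Of 21 listed genes, all were measured in both pools, with a median of 0.05. Differences were above 0 for 13 (53.9% of all genes) and below 0 for 8 (46.1%). Myd88, the adaptor of IL-1 and Toll-like receptors, was the highest, with signals of 1134 and 1416 and a difference of 0.52. Map2k6, a kinase that activates p38, was the lowest and the only one of the list at least 2-fold apart, with signals of 648 and 265 and a difference of -1.09, which was -0.92 on the series matrix values and -0.88 with normexp. Irak2 had 0.42 at its brighter probe and 1.46 at the other, which was dim, with signals of 40.0 and 95.6. That dim probe gave 0.90 on the series matrix values and 0.87 with normexp, inside 2-fold. Over the receptor, inflammasome and signalling lists together, 40 of 49 genes were measured in both pools, 0 were higher (2.83% of all genes) and 2 lower (4.51%) by 2-fold or more, and their median was 0.02. With either treatment of the raw signal (series matrix or normexp) 0 were at least 2-fold lower.

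Genes known to respond to IL-1 in liver or in macrophages went both ways. Of 25 listed, 23 were measured in both pools, 3 of them higher (2.83% of all genes) and 3 lower (4.51% of all genes) by 2-fold or more, with a median of 0.13. The cytokine gene Il6 had signals of 33.4 (Ad-Ctrl) and 547 (Ad-378), a difference of 4.24, and Nos2, the inducible nitric oxide synthase, 34.9 and 442, a difference of 3.87, with errors of 0.25 and 0.27. These became 3.08 and 2.76 on the series matrix values. Ptgs2, the inducible cyclooxygenase, and the neutrophil chemokine gene Cxcl2 were detected in the Ad-378 pool only, with bounds of at least 18.2-fold and at least 4.9-fold. On the series matrix values their log2 differences were 2.75 and 1.23, both smaller than the bounds. The acute phase genes Lcn2 and Orm3 were lower in the Ad-378 pool, Lcn2 from 20076 to 3069 (-2.51) and Orm3 from 1501 to 293 (-2.16). Orm1 (0.30) and Orm2 (0.19), both brighter than Orm3, were slightly higher in the Ad-378 pool. The serum amyloid genes Saa1 (0.08) and Saa2 (0.13), acute phase genes that IL-1 can induce in hepatocytes, were near equal. Saa3 was higher in the Ad-378 pool, from 954 to 1505 (0.86), and Saa4 had -0.04. Near equal too were Tnfaip3 (-0.02), Nfkbia (0.03) and Nfkbiz (0.06) of the same list. Cxcl1 had -0.19, Zc3h12a 0.45 and Icam1 0.63. These lists were drawn up with earlier results of these data known, so their directions are no independent evidence.

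**Figure D4:**
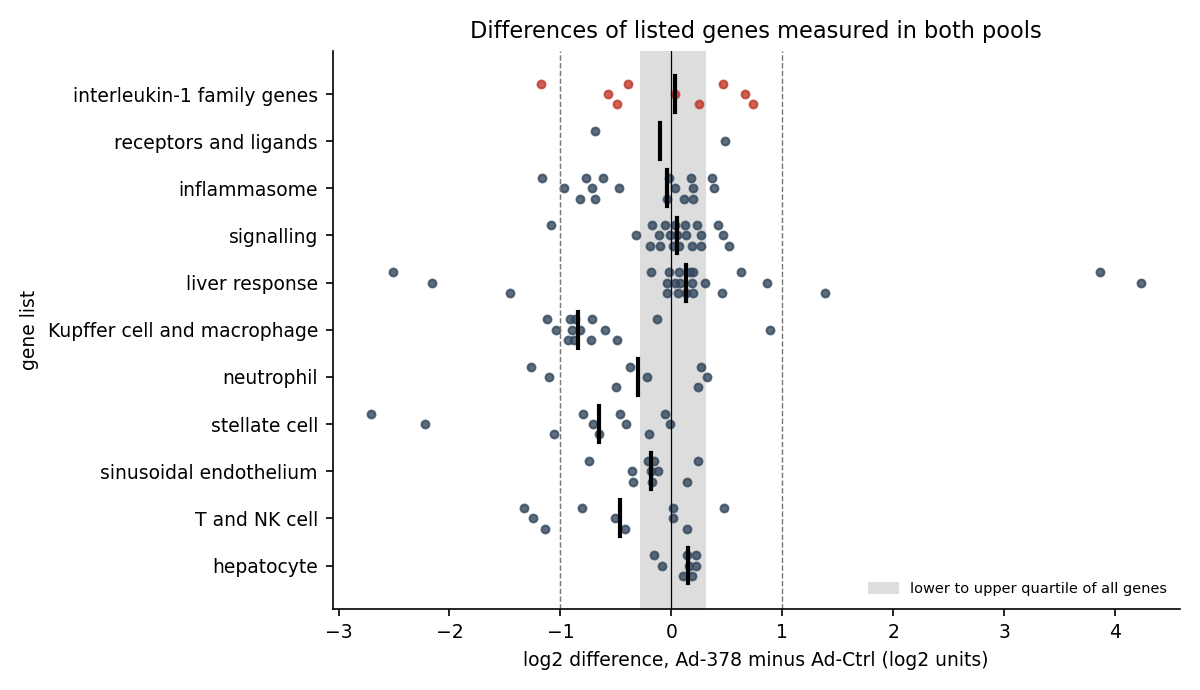
Log2 difference (Ad-378 minus Ad-Ctrl) of each gene measured in both pools, by list, with a black bar at the list's median, dashed lines at 2-fold and a grey band from the lower to the upper quartile of all genes (-0.28 to 0.30). The interleukin-1 family genes spread over both sides of 0 about a median of 0.04. Of 14 Kupffer cell and macrophage markers, 13 lie below 0 (46.1% of all genes).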

How the data were processed

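Liver RNA of each pool was labelled with Cy3 and hybridised to an Agilent 1-colour array, per the labels. The deposited scanner files hold spot intensities, which per the file headers were background-subtracted and detrended within each array by Agilent Feature Extraction 11.0.1.1 (9.1 per the submitters' processing notes), without scaling between arrays. Other deposited columns are flags of 0 or 1. The deposited series matrix intensities equal the raw median signal in 100% of values on both arrays, so their scale is linear, uncentred and in the arrays' own direction. The extraction text in the labels describes a blood RNA kit with globin removal, although the tissue is given as liver.

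After removal of 1377 control spots and of the 123 gene spots flagged as outliers on each array, spots of a probe were averaged, and log2 of the signal was scaled by subtracting the array's 75th percentile (signals of 800 and 695). A probe was named where its RefSeq identifier, without version, matched 1 gene of the GRCm38.p6 table (27219 of 39401 probes). The headers name build mm9, so gene positions are not printed, and promoter windows carry the build of their own table. Each gene is represented by its brightest probe among those detected in both pools. For detection on 1 array only, a lower bound of the fold was set against the dimmest detected signal of the other array, or against the probe's own signal there if that was higher. Both arrays carry 1 scan identifier, so no batch could be tested. Genes were counted at 2-fold and no test was run. The members and lists were chosen with earlier results of these data known. The text names all members and, of each list, genes at least 2-fold apart or with a bound of at least 2-fold, up to 6 by size, and up to 3 that were bright or near equal. Others were chosen after their values were seen, such as P2rx7, Nlrc4, Il18r1, Irak2, Gsdmd, Sigirr and the second probes. So were Naip1, Naip2, Naip5, Naip6, Saa3, Saa4, Orm1 and Orm2. The same holds for Tnfaip3, Nfkbia, Nfkbiz, Cxcl1, Zc3h12a and Icam1, and for the markers Itgam, Col1a1, Col3a1, Lrat and Hand2. Steps were tested on simulated data. Python 3.11.15, numpy 2.4.6, pandas 2.3.3, statsmodels 0.14.6 (lowess, span 0.3), R 4.3.3 and limma 3.58.1 were used.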

Additional observations from a re-analysis of the deposited data

How the results depend on the processing

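No paired analysis was possible because there was 1 pool and 1 array per virus. The alternatives were the 75th percentile over probes detected on both arrays, quantile normalization, loess, the mean over probes, no filter on background, the series matrix values, and limits of 1.5-fold and 3-fold. Normexp (offset 50) was chosen after seeing the data in the form used here, with spots marked as background outliers left out, because 1 local background of 6305 on the Ad-Ctrl array displaced the planned fit over all spots (fitted background mean -175 against 4.41 without those spots). That planned fit was not used.

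Of 63 values of the 9 members measured in both pools under 7 alternatives, 63 lay within 1.96 scanner errors of the value given, and 2 changed sign: Il1r2 with normexp (0.07) and Il33 with the other 75th percentile (-0.0029). That range is wide for dim genes, so it does not show stability. Without the filter on background all of these values stayed as given. The mean over probes could alter only Il1rap, which has more than 1 probe detected in both pools. Members at least 2-fold higher numbered 1 without the filter on background (Il1rl1) and 2 at 1.5-fold, and members at least 2-fold lower 0 at 3-fold. The medians of the members ran from -0.0029 to 0.14 and those of the IL-1 pathway genes from -0.02 to 0.03. IL-1 pathway genes at least 2-fold lower numbered 0 at 3-fold, with normexp and on the series matrix values, and 9 at 1.5-fold. They numbered 3 with the other 75th percentile, quantile normalization, loess and the mean over probes, against 2 in the main setting. Over all genes, 222 were higher and 393 lower on the series matrix values, 196 and 353 with normexp, 1059 and 1166 without the filter, 1256 and 1721 at 1.5-fold and 106 and 201 at 3-fold, against 405 and 645. Without the filter more genes were counted. The series matrix values keep the local background in the signal and normexp adds an offset of 50, and a constant added to both signals draws their ratio towards 1. The part of this in the lower counts on both raw-signal settings was not tested. Signal over background limits Il1rl1, Il1r2, Nlrp3 and Il18r1.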
